A study of Mus musculus with 4 samples.

Results

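Prostaglandins are short-lived lipid signals made from arachidonic acid, and the 10 genes described here encode enzymes that make or destroy them and receptors that read them. They are the cyclooxygenases Ptgs1 and Ptgs2, the synthases Ptges and Ptgis, the receptors Ptger2, Ptger3, Ptger4, Ptgfr and Ptgir, and the breakdown enzyme Hpgd. They were chosen by gene name from a table of 23444 gene symbols, and each of the 10 had a single row in it. The RNA came from lung cells of wild-type C57BL6 mice sorted as Pdgfra+ fibroblasts, mesenchymal cells that display the PDGF receptor alpha. There were 4 groups of 1 library each, 2 fetal, at days 16.5 and 18.5 of gestation (E16.5 and E18.5), and 2 postnatal, at days 7 and 28 after birth (P7 and P28). The labels give no number of animals and no sort gates.

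In this pathway a phospholipase frees arachidonic acid from membranes, a cyclooxygenase turns it into an unstable endoperoxide, and a terminal synthase turns that into prostaglandin E2, prostacyclin or a relative. The products leave the cell and act on G protein-coupled receptors of the same or nearby cells. A membrane carrier takes them up again and 15-hydroxyprostaglandin dehydrogenase, the product of Hpgd, inactivates them, a step for which the lung is a major site. In fibroblasts, prostaglandin E2 and prostacyclin signal largely through cyclic AMP and are known to restrain proliferation, contraction and collagen synthesis.

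Values are the deposited FPKM (fragments per kilobase of transcript, relative to the mapped total of the library). This is a level per length, so that levels can be set side by side between genes. With 1 library per age there is no spread between animals, and a difference below separates 2 libraries, is given by its size and was not tested. FPKM holds no read totals, so the number of reads in each library is unknown. From the steps between values under 0.1 FPKM, the E16.5 library was about 1.41 times as deep as E18.5, 0.949 times as deep as P7 and 1.06 times as deep as P28. The summed FPKM was 180010 (E16.5), 100231 (E18.5), 194577 (P7) and 220221 (P28), and over the 7930 genes at 1 FPKM or more in every library the median log2 ratio of E18.5 to E16.5 was -0.95. Levels are therefore also given after median-ratio scaling, which divides each library by its typical ratio to the others (factors 1.15, 0.581, 1.38 and 1.08 in order of age). Scaling raises the E18.5 values above those deposited and lowers the others.

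The sort label was checked against marker lists. All 10 general fibroblast genes were at 1 FPKM or more in every library, and Pdgfra itself read 88.7, 95.9, 113 and 188 FPKM from E16.5 to P28. Markers of other cells were present as well, in amounts that differed by age. The summed FPKM of 15 endothelial genes was 39.0, 44.9, 1431 and 364, and that of 14 leukocyte genes was 1799, 102, 21.2 and 5069, of which the P28 value was nearly all Lyz2, a lysozyme that alveolar type 2 cells also make, at 5062. The sum of 10 alveolar type 2 genes was 43.7, 132, 48.3 and 12640. In bulk RNA, fewer cells of a type and less RNA per cell cannot be told apart.

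Across the 4 ages the levels of the 10 genes ran from 0.0415 FPKM (Ptgfr at E18.5) to 243 (Hpgd at P7), and the enzymes reached higher levels than the receptors. All 5 enzymes reached 5 FPKM in at least 1 library, and 0 of the 5 receptors did. Of the receptors 4 reached 1 FPKM, and Ptgir stayed under it at every age. As deposited, 5 of the 10 genes were highest at P28, 2 at P7, 1 at E18.5 and 2 at E16.5, whereas E18.5 was the lowest library for 7. After scaling 3 were highest at P28, 2 at P7, 3 at E18.5 and 2 at E16.5, whereas E18.5 was the lowest library for 3. The age of the highest value was the same under both for 8 genes, the exceptions being Ptgs1 and Ptger3.

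**Figure D1:**
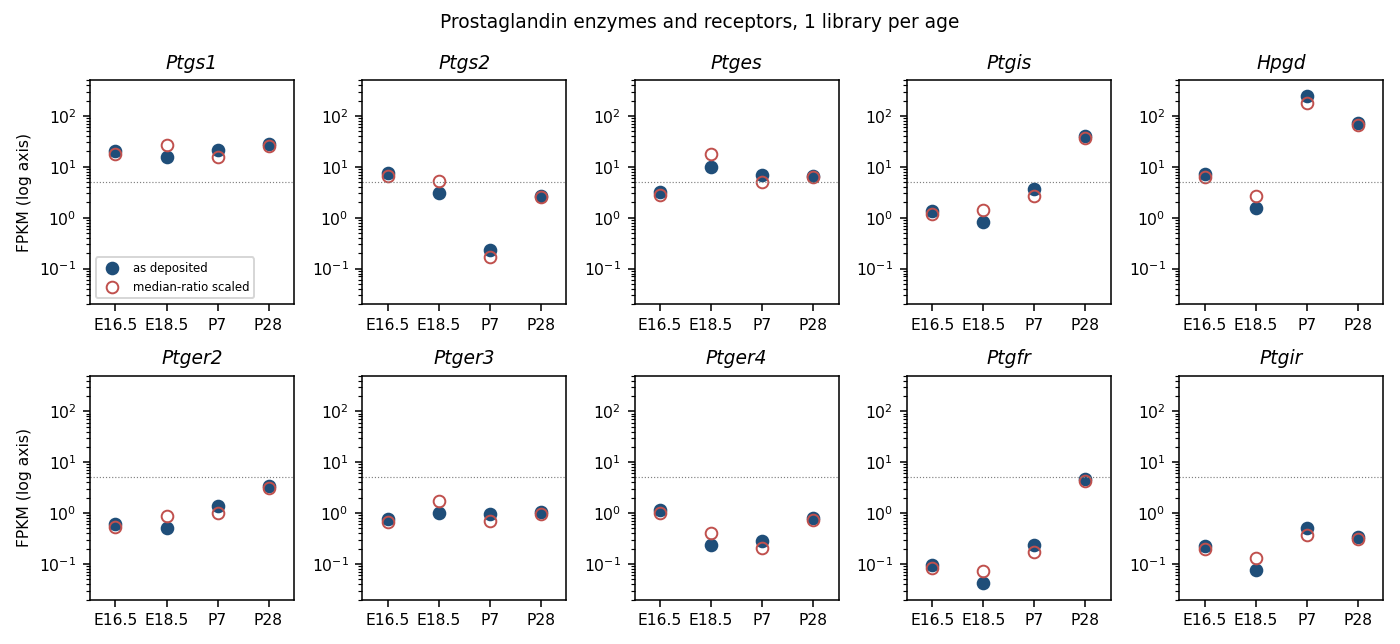
FPKM (log axis) of the 10 genes in the 4 libraries, 1 library per age and so without error bars, as deposited (filled) and after median-ratio scaling (open), with a dotted line at 5 FPKM. Hpgd has the widest span of the enzymes, from 1.54 at E18.5 to 243 at P7, Ptgs1 is nearly level, and the 5 receptors in the lower row lie below the line at every age.

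Calls needed 2 things, a difference in log2(FPKM + 1) of 1 or more (2-fold) and a level of 5 FPKM or more in the higher of the libraries compared. On this scale the fold change of a low gene is understated, and the 5 receptors could not be called at all. As a background, the share of all genes at 5 FPKM or more that was called is given with the first count in each comparison.

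Ptgs1 encodes the cyclooxygenase that most cells make constitutively, and it had the narrowest span of the 10 genes after scaling and, behind Ptger3, the second narrowest as deposited. It lies on GRCm38 chromosome 2, from 36230426 to 36252272 on the plus strand. Its level was 20.5, 15.4, 21.3 and 27.7 FPKM from E16.5 to P28. The highest library was 1.80 times the lowest, or 1.72 times after scaling, and no comparison called it. The order of the ages did not hold, since E18.5 was lowest as deposited (15.4) and highest after scaling (26.6). Ranked against the 12561 genes that reached 1 FPKM in some library, Ptgs1 stood at percentile 87.9 (E16.5), 92.3 (E18.5), 85.2 (P7) and 91.4 (P28), a rank that library scale does not move. Relative to Pdgfra it was at a ratio of 0.231, 0.161, 0.189 and 0.148 in order of age. The sum of 6 platelet and megakaryocyte markers, cells known for high Ptgs1, was 22.9, 11.6, 3.57 and 2.12 FPKM from E16.5 to P28, with Gp9 at 0 in 3 of the 4 libraries. Most of the fetal sums was Pf4 (21.3 and 10.6 FPKM), while Ppbp (0.980) and Gp1ba (0.420) were highest at P28, and the part of such cells in the Ptgs1 values was not tested.

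Ptgs2 encodes the inducible cyclooxygenase, an immediate early gene that mitogens, cytokines and tissue handling can raise within minutes to hours. It lies on chromosome 1, from 150100031 to 150108227 on the plus strand. Its level was 7.44 FPKM (E16.5), 3.09 (E18.5), 0.230 (P7) and 2.71 (P28). P7 was thus 32.4-fold below E16.5 as deposited and 38.9-fold after scaling, the widest gap for a gene that was lower after birth among these 10. The percentile of Ptgs2 was 65.6, 61.9, 5.99 and 35.5 in order of age. Among the 10 genes Ptgs2 was the only one lowest at P7 as deposited, while Ptgs1 and Ptger4 joined it after scaling.

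Because both cyclooxygenases catalyse the same reaction, their balance within a library can be read without any scaling. Ptgs1 made up 73.4% (E16.5), 83.3% (E18.5), 98.9% (P7) and 91.1% (P28) of the summed FPKM of the pair. Ptgs1 exceeded Ptgs2 2.76-fold, 4.99-fold, 92.6-fold and 10.2-fold from E16.5 to P28. The constitutive transcript was therefore the more abundant of the pair at every age, most so at P7.

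Ptgs2 was set beside 15 other immediate early genes. Their summed FPKM was 1435 (E16.5), 1305 (E18.5), 649.9 (P7) and 1241 (P28), again lowest at P7. At P7 against E16.5, 8 of the 15 were called lower and 0 higher under both settings. Of all genes, 6.68% were called lower and 15.7% higher as deposited, and 9.62% and 12.3% after scaling. The median log2 difference of the list members that reached 5 FPKM in either library was -1.501 as deposited and -1.76 after scaling, against 0.23 and -0.04 over all such genes. Zfp36, an mRNA decay factor, had the highest single value of the list, 564 FPKM at E18.5. It was among those called (324 FPKM at E16.5 against 61.2 at P7), with Egr2 (7.33 against 0.482) and Atf3 (43.0 against 4.87). Others did not follow, such as Dusp1, at 150.0 FPKM at E16.5 but 218 at P7, and Myc, which had the widest span of the list and was lowest at P28, at 25.2, 42.0, 19.2 and 2.24. Ptgs2 amounted to 0.519%, 0.237%, 0.0354% and 0.219% of the sum of these 15 genes from E16.5 to P28, so it was low at P7 by more than the list was. The sum of 14 leukocyte markers was also lowest at P7 (21.2 FPKM), but its P28 value was nearly all Lyz2 (15.0 FPKM at P7, 5062 at P28). Of the 14 genes, 13 were at 1 FPKM or more at E16.5, against 3 at P7 and 3 at P28. The part of leukocyte RNA in the Ptgs2 values, like that of tissue handling, was not tested.

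The start regions of the cyclooxygenase genes are printed because their products share a reaction and their levels parted at P7. Each runs from 250 bases before to 30 bases after the RefSeq start on GRCm38.p6, and capitals mark matches on either strand to any of 6 motifs. These were the TATA box, spelled TATAAA, the half-site of the cyclic AMP response element (CRE), spelled CGTCA, and the E-box, spelled CACGTG. The other motifs searched were the C/EBP type, spelled TTGCGCAA, the binding motif of AP-1, spelled TGANTCA, and the GC box of Sp1, spelled GGGCGG. The Ptgs1 window is chr2:36230176-36230455 and the Ptgs2 window chr1:150099781-150100060, both on the plus strand.
Ptgs1: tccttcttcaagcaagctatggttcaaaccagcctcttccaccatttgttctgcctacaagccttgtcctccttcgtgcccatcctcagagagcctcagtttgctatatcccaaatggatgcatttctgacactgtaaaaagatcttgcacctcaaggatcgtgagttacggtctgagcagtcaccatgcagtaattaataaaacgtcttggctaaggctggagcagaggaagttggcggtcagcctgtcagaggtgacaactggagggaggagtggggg
Ptgs2: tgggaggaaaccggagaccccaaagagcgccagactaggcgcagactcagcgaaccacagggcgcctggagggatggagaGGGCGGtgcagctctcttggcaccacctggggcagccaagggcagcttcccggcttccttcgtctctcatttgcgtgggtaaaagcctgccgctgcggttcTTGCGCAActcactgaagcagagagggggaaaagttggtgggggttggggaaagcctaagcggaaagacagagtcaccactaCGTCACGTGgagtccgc
The Ptgs1 window held none of the 6 motifs. The Ptgs2 window held a GC box at position -170, a C/EBP-type match at -69, and a CRE half-site at 14 that overlaps an E-box at 17, counted from the RefSeq start at 1. Of 32851 such windows over all genes, 34.7% held the GC box, 0.180% the C/EBP-type match, 19.9% the CRE half-site, 6.79% the E-box, 13.1% the TATA box and 7.46% the AP-1 motif. The matches describe letters only, and nothing in these data shows a factor bound there.

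Ptges and Ptgis encode the terminal synthases for prostaglandin E2 (the microsomal, inducible form) and for prostacyclin, and they were highest at different ages. Ptges (chromosome 2, 30889471 to 30929863, minus strand) was at 3.25, 10.1, 6.98 and 6.64 FPKM from E16.5 to P28. E18.5 was the highest library and E16.5 the lowest under both settings, 3.11-fold apart as deposited and 6.15-fold after scaling. Its percentile was 41.2, 87.2, 58.1 and 62.0 in order of age.

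Ptgis (chromosome 2, 167191805 to 167240604, minus strand) was at 1.36 FPKM (E16.5), 0.806 (E18.5), 3.64 (P7) and 40.1 (P28). P28 stood apart from the other libraries by 11.0-fold or more as deposited and by 14.1-fold or more after scaling. Its percentile was 19.9 and 26.9 in the fetal libraries, 40.2 at P7 and 94.5 at P28. Relative to Pdgfra, Ptgis was at a ratio of 0.0153, 0.00840, 0.0322 and 0.214, so the P28 library was the highest on that scale too.

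The balance of the synthases turned over. Ptges exceeded Ptgis 2.39-fold (E16.5), 12.6-fold (E18.5) and 1.92-fold (P7), while at P28 Ptgis exceeded Ptges 6.04-fold. As a share of the pair, Ptgis was 29.5%, 7.37%, 34.3% and 85.8% in order of age.

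Markers of other cells moved beside Ptgis at P28. The sum of 6 mesothelium genes was 2.21, 11.8, 52.0 and 163 FPKM from E16.5 to P28, with 6 of 6 at 1 FPKM or more at P28 and none at 0 in any library. Ptgis amounted to 61.4%, 6.85%, 7.00% and 24.6% of that sum. The alveolar type 2 sum was 12640 FPKM at P28 with 10 of 10 genes at 1 FPKM or more, and the sum of 8 airway genes was 19677 with 6 of 8. Smooth muscle and endothelial cells are known sources of prostacyclin synthase. The sum of 8 smooth muscle genes was 518 FPKM at P7 and 31.4 at P28, and the endothelial sum was 1431 and 364. The 10 fibroblast genes summed to 4104 FPKM at P7 and 7989 at P28, and Ptgis was 0.0887% and 0.502% of that sum. The part of mesothelial, epithelial, smooth muscle and endothelial RNA in the Ptgis values was not tested.

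**Figure D2:**
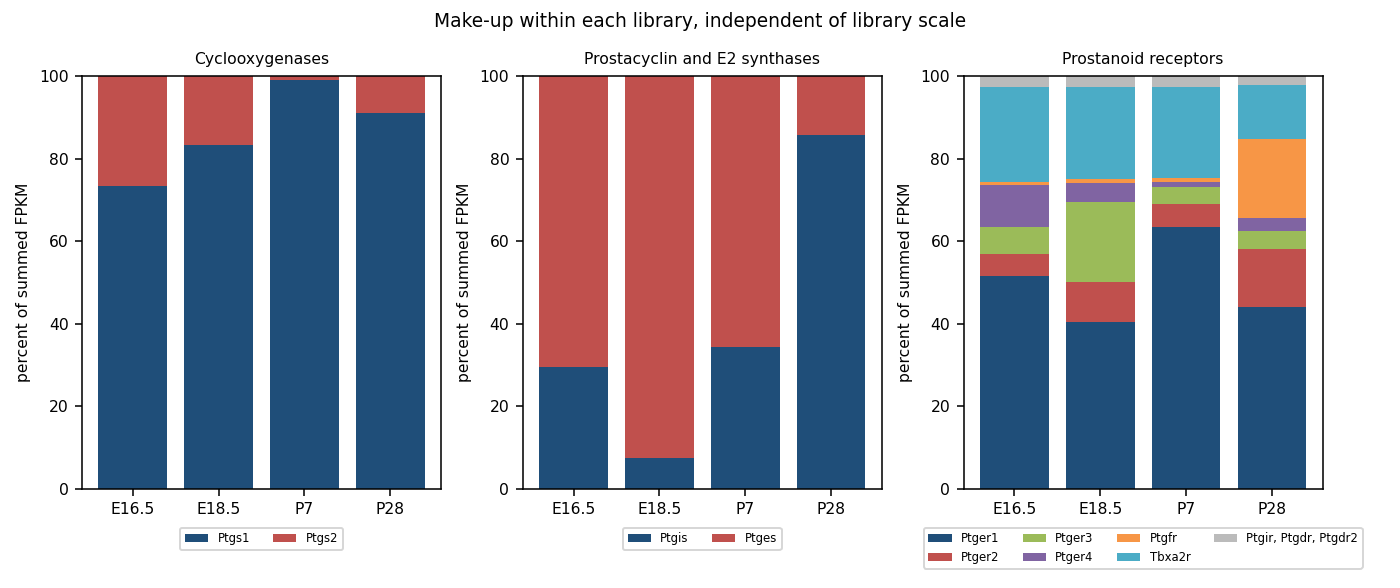
Percent of summed FPKM within each library for the 2 cyclooxygenases, the 2 terminal synthases and the 9 prostanoid receptors, 1 library per age, values that a library factor cannot change. Ptgs2 takes 1.07% of the cyclooxygenase sum at P7, Ptgis takes 85.8% of its pair at P28, and Ptgfr is a visible share of the receptors (19.0%) at P28 only.

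The RefSeq start region of Ptges on the minus strand is shown beside those of the cyclooxygenases, in the same layout, from chr2:30903268-30903547.
Ptges: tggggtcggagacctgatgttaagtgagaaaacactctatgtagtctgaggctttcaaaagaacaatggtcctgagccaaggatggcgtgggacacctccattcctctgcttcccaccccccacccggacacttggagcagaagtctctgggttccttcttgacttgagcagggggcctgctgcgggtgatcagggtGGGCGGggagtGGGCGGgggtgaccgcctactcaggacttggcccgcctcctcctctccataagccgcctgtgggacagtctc
It held 2 GC boxes, at positions -53 and -42, and none of the other 5 motifs. Counted from the GENCODE start of the gene, these boxes lie at 26514 and 26525. The window is thus well inside the GENCODE span given above, and does not cover the start of that span.

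Hpgd, which encodes the enzyme that oxidises and so inactivates E and F prostaglandins, had the highest single value and the widest span of the enzymes. The gene lies on chromosome 8, from 56294585 to 56321043 on the plus strand. Its level was 7.10 FPKM (E16.5), 1.54 (E18.5), 243 (P7) and 71.0 (P28). Both postnatal libraries lay above both fetal ones, by 9.998-fold or more as deposited and 10.6-fold or more after scaling. Its percentile was 64.3, 43.0, 99.3 and 97.0 in order of age. Between P7 and E18.5 the ratio was 158 as deposited and 66.7 after scaling.

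Breakdown and synthesis can be set against each other within a library. The ratio of Hpgd to the sum of Ptgs1 and Ptgs2 was 0.254, 0.0830, 11.3 and 2.33 from E16.5 to P28. The breakdown transcript was thus below the summed cyclooxygenase transcripts in both fetal libraries and above them in both postnatal ones. Slco2a1, the prostaglandin transporter that carries prostaglandins into cells for this step, was at 4.28 FPKM (E16.5), 23.1 (E18.5), 121 (P7) and 67.7 (P28), also highest at P7. It differed from Hpgd at E18.5, where it was above its E16.5 value while Hpgd was below, and the ratio of Hpgd to Slco2a1 was 1.66, 0.0665, 2.01 and 1.05.

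The endothelial sum, like Hpgd, was highest at P7. All 15 endothelial genes were at 1 FPKM or more at P7 and at P28, against 9 of 15 at E16.5 and 11 of 15 at E18.5, with none at 0 in any library. Cdh5, the cadherin of endothelial junctions, was at 4.999, 5.79, 276 and 67.3 FPKM from E16.5 to P28. The ratio of Hpgd to Cdh5 was 1.42, 0.266, 0.882 and 1.06 from E16.5 to P28. As a percent of the endothelial sum Hpgd was 18.2, 3.43, 17.0 and 19.5, and the sum itself differed 36.7-fold between E16.5 and P7. From E16.5 to E18.5 the sum rose from 39.0 to 44.9 FPKM, while Hpgd fell from 7.10 to 1.54. Lung endothelium is a known site of Hpgd and Slco2a1, and the part of endothelial RNA in the Hpgd values was not tested. The same applies to alveolar type 1 genes, whose sum was 26.5, 30.5, 326 and 205 FPKM, led at every age by Cav1, which endothelial cells also make. Of that list Cav1 and Clic5 were highest at P7, while Hopx, Ager, Pdpn, Aqp5 and Akap5 were highest at P28 and Rtkn2 at E16.5.

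The Hpgd start region, chr8:56294302-56294581 on the plus strand, is printed for the gene with the largest change.
Hpgd: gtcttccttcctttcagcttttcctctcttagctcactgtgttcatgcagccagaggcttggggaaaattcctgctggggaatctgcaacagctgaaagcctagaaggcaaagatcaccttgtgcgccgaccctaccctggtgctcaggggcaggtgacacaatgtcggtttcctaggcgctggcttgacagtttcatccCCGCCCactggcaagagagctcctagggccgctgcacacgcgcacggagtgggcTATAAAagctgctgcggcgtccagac
It held a TATA box at position 5 from the RefSeq start, which is 29 bases before the GENCODE start of the gene, and a GC box at -50. Of the 9 genes with a window, 1 held the TATA box and 7 the GC box, against 13.1% and 34.7% of all windows.

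**Figure D3:**
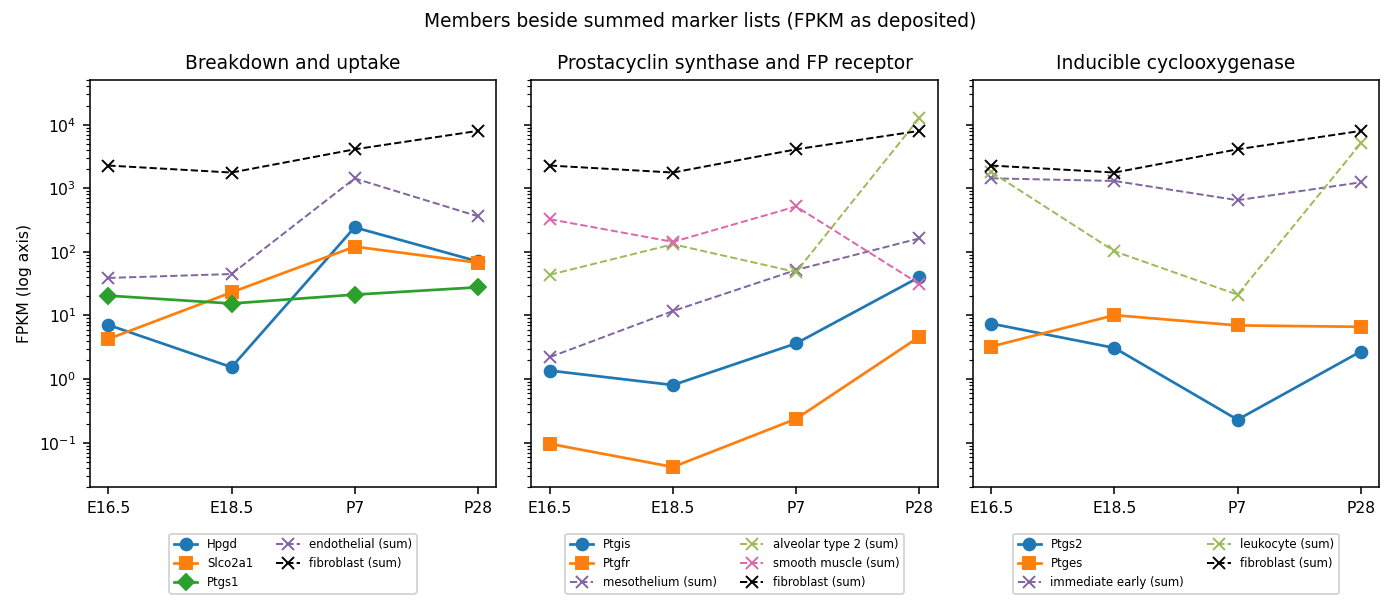
FPKM (log axis) as deposited of single genes (solid lines) and of summed gene lists (dashed lines) in the 4 libraries, 1 library per age. Hpgd, Slco2a1 and the endothelial sum are all highest at P7, though not in a fixed proportion to each other. Ptgis and Ptgfr are highest at P28, as are the mesothelium, alveolar type 2 and fibroblast sums. Ptgs2 is lowest at P7, where the immediate early sum is also lowest.

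The receptors were low throughout. Ptger2 and Ptger4 encode the EP2 and EP4 receptors for prostaglandin E2 and Ptgir the IP receptor for prostacyclin, all coupled to stimulation of cyclic AMP. Ptger3 encodes EP3, which mainly inhibits adenylyl cyclase, and Ptgfr encodes FP, the calcium-coupled receptor for prostaglandin F2 alpha. The 5 together summed to 2.86 FPKM (E16.5), 1.87 (E18.5), 3.37 (P7) and 10.2 (P28).

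Ptgfr (chromosome 3, 151796502 to 151837630, minus strand) had the widest span of the receptors. It was at 0.0960, 0.0415, 0.237 and 4.61 FPKM from E16.5 to P28. The first 3 values lie at the bottom of the expressed range, and P28 was 19.5-fold above P7 as deposited and 24.8-fold after scaling. Its percentile was 2.91, 2.51, 6.08 and 51.4. Ptgfr made up 7.04% of the 5 receptors at P7 and 45.2% at P28. As with Ptgis, the mesothelial sum and the epithelial sums given beside that gene were also highest at P28, and so was the fibroblast sum. The part of each in the Ptgfr values was not tested.

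Ptger2 (chromosome 14, 44988195 to 45003820, plus strand) was at 0.609 FPKM (E16.5), 0.503 (E18.5), 1.37 (P7) and 3.43 (P28). Both postnatal libraries lay above both fetal ones under either setting, although after scaling P7 (0.996) was close to E18.5 (0.867). Ptger4 (chromosome 15, 5206661 to 5244187, minus strand) was placed otherwise, at 1.17, 0.237, 0.288 and 0.797 FPKM from E16.5 to P28, with E16.5 highest under both settings. Within the group, Ptger4 held 41.0% of the 5 receptors at E16.5 and 12.7%, 8.54% and 7.80% later. Leukocytes are known for Ptger4, and at E16.5 all but 1 of the 14 leukocyte genes were at 1 FPKM or more, Ptprc, the pan-leukocyte CD45 gene, at 15.4, against 10 of 14 at E18.5 and 3 of 14 at P7 and at P28. Their part in the Ptger4 values was not tested.

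Ptger3 (chromosome 3, 157566892 to 157645888, plus strand) was the steadiest receptor, at 0.751, 1.01, 0.969 and 1.04 FPKM in order of age, 1.39-fold from lowest to highest. After scaling the span was 2.66-fold with E18.5 highest (1.74). Ptgir (chromosome 7, 16906490 to 16910905, plus strand) was the lowest of the 10 genes at its best, at 0.230, 0.0750, 0.501 and 0.333 FPKM. It was highest at P7, while the prostacyclin synthase Ptgis was highest at P28.

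The other prostanoid receptors give these levels a context. Ptger1, the calcium-coupled EP1 receptor, exceeded each of the 5 receptors above at every age, at 5.96 FPKM (E16.5), 2.10 (E18.5), 15.4 (P7) and 10.7 (P28). Tbxa2r, the thromboxane receptor, was at 2.67, 1.16, 5.40 and 3.20. The prostaglandin D2 receptor genes Ptgdr and Ptgdr2 (listed as Gpr44) were at or below 0.182 FPKM. Of the summed FPKM of all 9 prostanoid receptors, those that stimulate cyclic AMP (Ptger2, Ptger4, Ptgdr and Ptgir) held 17.6%, 15.7%, 9.16% and 19.5% from E16.5 to P28, while Ptger1 alone held 51.6%, 40.4%, 63.4% and 44.0%.

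E18.5 was set against E16.5 for the last days before birth. Ptges was the only one of the 10 genes called higher, with a log2 difference of 1.39 as deposited and 2.27 after scaling, where 2.32% of all genes at 5 FPKM or more were called higher as deposited and 9.34% after scaling. Ptgs2 (-1.05) and Hpgd (-1.67) were called lower as deposited, where 47.4% of all genes were. Neither was called after scaling (-0.24 and -0.98), when 12.2% of all genes were called lower. Slco2a1 was called higher under both settings. Of the 7 transport and breakdown genes 2 reached 5 FPKM here, of which 1 was called higher and 0 lower.

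P7 was set against E18.5 for the span across birth. Hpgd was called higher, with a log2 difference of 6.59 as deposited, where 63.3% of all genes were called higher, and of 5.61 after scaling, where 14.7% were. As deposited 0 of the 10 genes were called lower, against 2.89% of all genes at 5 FPKM or more. Only 3 of the 10 reached that level here, too few to set against this share. After scaling Ptges (-1.60) and Ptgs2 (-2.44) were called lower, against 12.0% of all genes. For Ptgs2 the deposited difference was also below -1 (-1.73), but neither library reached 5 FPKM. Ptgs1 turned with the scale, at 0.44 as deposited and -0.74 after scaling.

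P28 was set against P7 for the end of alveolar formation. Ptgis was called higher, with a log2 difference of 3.15 as deposited and 3.39 after scaling, and 10.5% and 14.6% of all genes were called higher under these settings. Hpgd was called lower, at -1.76 and -1.41, and 16.9% and 10.3% of all genes were called lower. Ptgfr (2.18 and 2.17) and Ptgs2 (1.59 and 1.59) were past the 2-fold limit but under 5 FPKM in both libraries. Ptges was nearly level, at -0.06 and 0.24.

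Across the ends of the course, P28 against E16.5, Ptgis (4.12) and Hpgd (3.15) were called higher and Ptgs2 (-1.18) lower, with the same calls after scaling (4.13, 3.22 and -1.09). Of all genes 18.0% were called higher and 16.9% lower as deposited, and 19.7% and 15.0% after scaling. At P7 against E16.5, Hpgd (4.91) was called higher and Ptgs2 (-2.78) lower, again under both settings (4.63 and -2.68), with the background shares given above for the immediate early genes. These comparisons share libraries with the others, so their values are not independent of them.

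**Figure D4:**
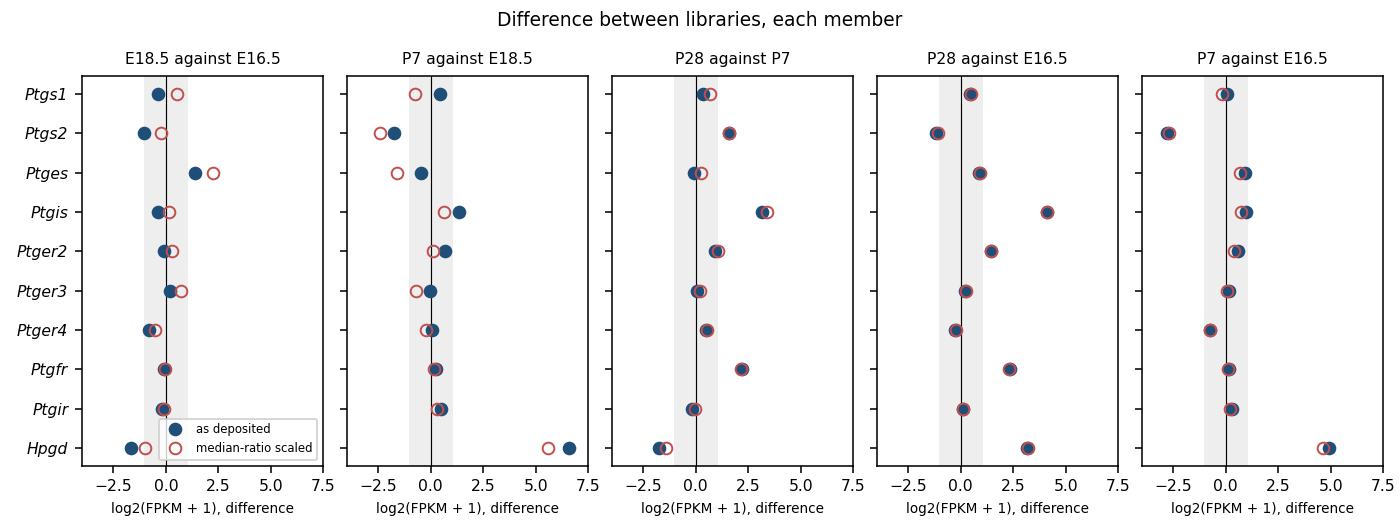
Difference in log2(FPKM + 1) between 2 libraries for each of the 10 genes in 5 comparisons, as deposited (filled) and after median-ratio scaling (open), with grey marking differences under 2-fold. Hpgd at P7 and Ptgis at P28 lie far to the right under both settings, while Ptgs1 changes side between settings in 3 of the 5 comparisons.

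Upstream of the cyclooxygenases, 3 of 15 genes for the release of arachidonate reached 5 FPKM. Pla2g4a, the cytosolic phospholipase A2 that supplies arachidonate to cyclooxygenases, was at 6.36 FPKM (E16.5), 1.70 (E18.5), 1.49 (P7) and 7.23 (P28). It was called lower at P7 against E16.5 and higher at P28 against P7 under both settings. Mgll, the lipase of the endocannabinoid 2-arachidonoylglycerol, was highest at P7, at 3.505, 1.54, 11.0 and 4.38. Lypla1, a lysophospholipase, was at 3.19, 1.66, 5.87 and 3.04.

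Among 8 further synthases 2 reached 5 FPKM. Ptges3, the cytosolic prostaglandin E synthase that also serves as the Hsp90 cochaperone p23, was the most abundant gene of that list at every age, at 62.7, 23.7, 51.5 and 42.3 FPKM, and Cbr1, a carbonyl reductase, was at 13.1, 9.87, 16.2 and 14.8. After scaling neither of these 2 was called in any comparison, where 9.34% to 19.7% of all genes were called in each direction. The rest of the 8 stayed under 5 FPKM and could not be called. Hpgds, a prostaglandin D2 synthase of mast cells and macrophages, had 2.15 FPKM in the E16.5 library and 0.269 or less later, and Tbxas1, thromboxane synthase, was at 0.997 and then at 0.240 or less. Akr1b3, an aldose reductase that can form prostaglandin F2 alpha, had the widest span of the 8 but stayed under 5 FPKM, at 4.13, 0.000463, 1.33 and 0.000737. Its E18.5 and P28 values are far below 1 FPKM, so no size can be given to that span. Of 7 mast cell genes, 6 were highest at E16.5, led by Cpa3 (31.3, 0.817, 0.119 and 0.278 FPKM), while Kit was highest at P7 (3.11, 0.513, 42.0 and 8.38). The sum of the 7 was 56.1, 2.50, 42.4 and 8.79 FPKM, and the part of such cells in these values was not tested.

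Of 7 genes for transport and breakdown, Slco2a1 and Slco3a1, another carrier of the same family, were called higher at P7 and at P28 against E16.5 under both settings, and 0 were called lower in these comparisons. Slco3a1 was at 1.52, 0.979, 21.7 and 20.2 FPKM. Zadh2, a prostaglandin reductase, stayed within 1.87-fold, at 6.71, 5.25, 9.83 and 5.81. Among the 5 other receptor-related genes, Ptgfrn, a tetraspanin partner first named for its effect on FP, was the most abundant, at 17.2, 8.13, 62.4 and 34.7, and was called higher at P7 against E16.5 under both settings.

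The genes with the most similar course were sought among the 4798 other genes that reached 10 FPKM in any library, by the Euclidean distance between log2(FPKM + 1) profiles centred over the 4 libraries. For Hpgd they were Tmem100 (distance 0.71), Slc9a3r2 (1.00) and Pcdh1 (1.07). Tmem100 was at 3.98, 0.199, 120.3 and 62.7 FPKM. For Ptgis they were Car8 (0.20), Lgals2 (0.29) and Rnase4 (0.42), for Ptges Pros1 (0.25), Tgfbr3 (0.28) and Dst (0.31), and for Ptgs1 Sec11a (0.06), Marf1 (0.08) and Akap13 (0.08). For Ptgs2, among 4799 genes, they were the heat shock gene Hspa1a (0.68), Il17ra (0.72) and Lox (0.75). These are the neighbours on the deposited scale. After scaling, 9 of the 15 were still among the nearest 3, while Rnase4 was at rank 28, Lox at 16 and Hspa1a at 14. With 4 libraries such likeness is a description only.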

How the data were processed

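The authors deposited 1 table of FPKM values, per the file headers, with 23931 entries and 1 column per age. TopHat, TopHat2 2.0.9, GRCm38 and mm10 appear in the submitters' processing notes. What program computed the FPKM was not given in the sources used here. Per the labels' protocols, paired-end libraries were made with Nextera XT from cDNA. No strand setting is stated, and 5 of the 10 genes share exon bases with genes on the other strand, whose reads cannot be told apart. Each such pair shares 1.23% to 15.3% of the exon bases of the gene described here. Both ends of that range are Ptger4, with Ttc33 the least and with Gm15937 the most.

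Rows with the same symbol were added up (745 entries of 258 symbols), and none of the 10 genes was among them. Values were compared as log2(FPKM + 1), and calls used a log2 difference of 1 and 5 FPKM in the higher library. Every member is named. From each pathway list the text names the gene with the highest single value and, among genes at 5 FPKM or more, those with the largest spans. Dusp1, Hpgds, Tbxas1, Akr1b3, Ptgdr, Ptgdr2, Ltc4s, Ppbp, Gp1ba, Kit, Cdh5 and Ptprc were chosen after their values were seen. Ptgdr2 was found under its RefSeq synonym Gpr44. The members and lists were chosen with earlier results of these data known. Gene coordinates come from GENCODE M21 (GRCm38). RefSeq start regions matched 9 of the 10 genes. The code was tested on simulated data. Python 3.11.15, numpy 2.4.6, pandas 2.3.3 and matplotlib 3.10.9 were used.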

Additional observations from a re-analysis of the deposited data

How the results depend on the processing

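Of 50 log2 differences (10 genes, 5 comparisons), 11 were called as deposited, and the higher calls of Hpgd at P7 (against E18.5 and E16.5) and at P28 against E16.5 and of Ptgis at P28 (against P7 and E16.5) held under all 8 other settings and under the scaling added later. Leaving out symbols with several entries changed no call. For E18.5 against E16.5, genes called lower went from 2 to 0 with median-ratio or upper-quartile scaling, a pseudocount of 5, a minimum of 10 FPKM or a 4-fold threshold, and genes called higher from 1 to 0 with a pseudocount of 5 or a 4-fold threshold. For P7 against E18.5, genes called lower went from 0 to 2 with median-ratio or upper-quartile scaling and to 1 with no minimum, and genes called higher from 1 to 2 with no minimum. For P28 against P7, genes called higher went from 1 to 3 with no minimum, and genes called lower from 1 to 0 with a 4-fold threshold. For P28 against E16.5, genes called higher went from 2 to 4 with no minimum and to 3 with a pseudocount of 0.1 (Ptges, 1.01), and genes called lower from 1 to 0 with a pseudocount of 5, a minimum of 10 FPKM or a 4-fold threshold. For P7 against E16.5, genes called lower went from 1 to 0 with a minimum of 10 FPKM, and genes called higher from 1 to 2 with a pseudocount of 0.1 (Ptges, 1.08). The order of the 4 ages differed from that of the deposited values for 6 of the 10 genes with median-ratio or upper-quartile scaling. Scaling each library to the summed fibroblast markers, chosen after seeing the data, gave 1 gene lower at E18.5 against E16.5, 2 at P7 against E18.5 and 2 at P28 against E16.5, where Ptgs1 turned from 0.42 to -1.30. No paired analysis was possible because each age has 1 library. Depth is unknown, so levels under 1 FPKM, the receptors above all, carry an error that cannot be given.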

Other observations

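Neighbouring lipid and second messenger genes showed courses of their own. Of 7 leukotriene genes 2 reached 5 FPKM: Alox5ap, the 5-lipoxygenase activating protein of leukocytes, at 50.0, 1.74, 0.854 and 0.499 FPKM in order of age, and Lta4h, leukotriene A4 hydrolase, at 13.2, 5.31, 9.40 and 4.63. Ltc4s was listed at 0 in every library. The leukocyte gene Ptprc was at 15.4, 0.536, 0.278 and 0.0983, highest at E16.5 as Alox5ap was, and its part in the Alox5ap values was not tested.

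Of 15 genes of cyclic AMP signalling 11 reached 5 FPKM. Gnas, the stimulatory G protein subunit on which EP2, EP4 and IP act, was the most abundant at every age, at 663, 227, 846 and 626. Pde4b, a phosphodiesterase that degrades cyclic AMP, was at 17.5, 10.8, 75.4 and 12.4, and Adcy4, an adenylyl cyclase, at 0.922, 0.543, 16.7 and 6.11, both called higher at P7 against E16.5 under both settings, where 15.7% of all genes were as deposited and 12.3% after scaling. Nr4a2, a nuclear receptor that cyclic AMP induces, was at 12.4, 21.7, 6.20 and 3.12, highest at E18.5 and lowest at P28. The endothelial sum was also highest at P7, and its part in the Pde4b and Adcy4 values was not tested.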
